A study of Mus musculus with 15 samples.

Results

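The mast cell proteases and granzyme B were followed as 10 genes, taken as the rows of the deposited count table with the symbols Cma1, Mcpt1, Mcpt2, Mcpt4, Mcpt8, Tpsb2, Tpsab1, Tpsg1, Cpa3 and Gzmb, out of 52327 named entries. The study measured mRNA in a mouse line named HoxB, a blood cell by its label, in 5 groups of 3 libraries. EMPTY cells carried the control vectors, RUNX1-ETO_ONLY cells the fusion gene RUNX1-ETO, and CSF3R_ONLY cells the receptor allele CSF3R-T618I. Cells of both double groups carried the fusion and the receptor allele, RUNX1-ETO_FIRST with the fusion introduced first and CSF3R_FIRST with the receptor introduced first. Per its title, the study asked whether the order of these lesions matters for acute myeloid leukaemia. The labels do not say whether a group was 1 clone or a mixed population, or whether replicates were separate cultures, so p-values measure the spread between these libraries, which may be technical.

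Mast cells store proteases in secretory granules, bound to serglycin proteoglycan, and release them when the high-affinity IgE receptor is cross-linked. Their enzymes fall into classes: chymases, which cleave after aromatic residues and in rodents include a relative with elastase activity, tryptases, which cleave after basic residues, and the zinc exopeptidase carboxypeptidase A3. The chymase genes lie in one cluster with cathepsin G and the granzymes. Granzyme B, which cleaves after aspartate, is best known from cytotoxic lymphocytes, where perforin brings it into target cells, and is also made by some mast cells and basophils.

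Total counts were 17007437 to 18178292 per library, and all 10 genes passed the low-count filter that kept 13123 genes for testing. Runx1t1, whose human counterpart supplies the ETO part of the fusion, had 0 counts in EMPTY and CSF3R_ONLY. Among the groups labelled with the fusion, its mean was 448 CPM (counts scaled to a common library size) in RUNX1-ETO_ONLY. It was 494 CPM in RUNX1-ETO_FIRST (libraries 381 to 564) and 712 CPM in CSF3R_FIRST (559 to 812). Csf3r had means of 420 CPM in EMPTY, 525 in RUNX1-ETO_ONLY, 622 in CSF3R_ONLY, 420 in RUNX1-ETO_FIRST and 398 in CSF3R_FIRST. Neither double group was thus above EMPTY in its mean. Gene counts do not show the T618I change, so the presence of the receptor allele rests on the labels. In 4 libraries (replicate 3 of EMPTY, of RUNX1-ETO_ONLY and of CSF3R_FIRST, and replicate 1 of RUNX1-ETO_FIRST) the deviation from the group mean fell with transcript length, with a correlation across 12820 genes of -0.48 to -0.27 against -0.06 to 0.36 in the other 11. The protease transcripts are short (median 1.25 kb, against 4.15 kb for the tested genes), and each of these 4 libraries had the highest share of protease counts in its group. EMPTY replicate 3 lay above the other EMPTY libraries for all 10 genes, by a median of 0.95 on the log2 scale against 0.02 over all genes. Its part in the results was not tested beyond the values given without it.

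Protease transcripts took a larger share of the counts with either allele, and the largest in CSF3R_FIRST. They made up 0.110% ± 0.027 of the counts in EMPTY (mean ± SD, n = 3 libraries, here and below), 0.416% ± 0.009 in CSF3R_ONLY, and 1.14% ± 0.05 in RUNX1-ETO_ONLY. With both alleles the share was 1.47% ± 0.17, fusion first, and 2.43% ± 0.26, receptor first. Cpa3 supplied 90.7% of the protease counts in EMPTY and 89.5% in RUNX1-ETO_ONLY, but 43.3% in CSF3R_ONLY. Without Cpa3 the order of the single groups was the opposite, with 0.120% in RUNX1-ETO_ONLY and 0.236% in CSF3R_ONLY, and the double groups stood at 0.376% and 0.930%. In these bulk samples a larger share of cells with protease transcripts and more transcripts per cell cannot be told apart.

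**Figure D1:**
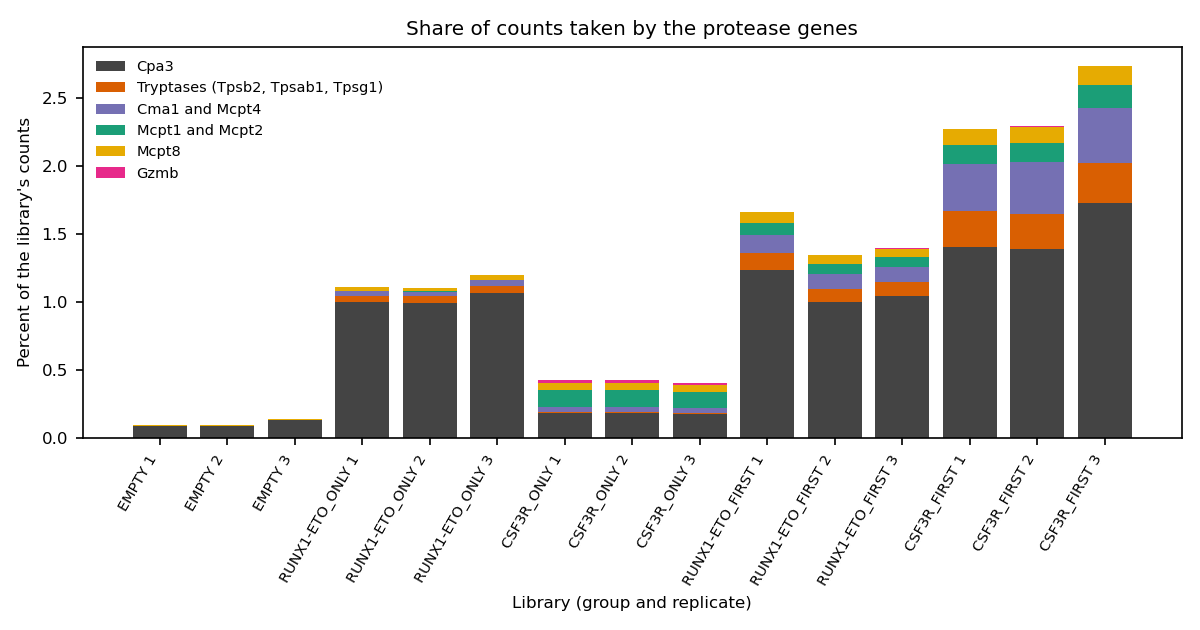
Share of each library's counts, in percent, taken by the protease genes, with 1 stacked bar per library and 1 colour per gene class. Cpa3 fills most of the RUNX1-ETO_ONLY bars, Mcpt1, Mcpt2 and Mcpt8 are visible in CSF3R_ONLY, and the CSF3R_FIRST bars are the tallest at a mean of 2.43%.

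Cma1 (mouse mast cell protease 5, the conserved alpha-chymase of the locus) and Mcpt4 (the connective tissue chymase) rose with either allele alone. Cma1 had 1.27, 1.33 and 2.76 CPM in EMPTY, 269, 259 and 321 in RUNX1-ETO_ONLY and 367, 359 and 351 in CSF3R_ONLY. The single groups lay far above EMPTY and did not overlap each other. The log2 fold change was 7.32 ± 0.21 (SE) with the fusion (adjusted p = 5.84e-13, edgeR quasi-likelihood test adjusted over all 13123 genes, as for each adjusted p below) and 7.66 ± 0.21 with the receptor (adjusted p = 5.26e-13).

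Both alleles together gave the highest Cma1 levels. RUNX1-ETO_FIRST libraries held 1065, 899.7 and 872 CPM and CSF3R_FIRST libraries 3078, 3319 and 3743 CPM of Cma1, so that every library with both alleles was above every library with one. Mcpt4 had 0, 0 and 2 counts in EMPTY. It reached 44.4, 45.5 and 55.8 CPM in RUNX1-ETO_ONLY and 34.4, 32.2 and 30.2 CPM in CSF3R_ONLY. Over the summed counts, scaled by total counts alone, that was 1349 times the EMPTY level with the fusion (exact 95% counting interval 373 to 11147). With the receptor the ratio was 817 (226 to 6753). Both intervals cover counting error only. In the double groups Mcpt4 stood at 283, 216 and 239 CPM with the fusion first and at 692, 693 and 712 CPM with the receptor first. As with Cma1, no group overlapped another.

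Mcpt1 and Mcpt2, the mucosal mast cell proteases, both rose with the receptor allele, and Mcpt2 also rose with the fusion. Mcpt1 had 2, 2 and 41 counts in EMPTY and 7, 2 and 9 counts in RUNX1-ETO_ONLY, levels that overlapped at 2.46 CPM or less (log2 fold change -1.45 ± 0.88, adjusted p = 0.216). In CSF3R_ONLY it had 901, 925 and 854 CPM, a log2 fold change of 10.01 ± 0.48 over EMPTY (adjusted p = 1.85e-10). Both double groups were lower than CSF3R_ONLY, with 386, 286 and 309 CPM in RUNX1-ETO_FIRST and 537, 511 and 630.03 CPM in CSF3R_FIRST, and none of the 3 groups overlapped.

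Mcpt2, 81% identical to Mcpt1 in its coding sequence, was detected in fusion cells as well. Its EMPTY libraries had 3, 5 and 28 counts, and its RUNX1-ETO_ONLY libraries 10.8, 9.86 and 12.6 CPM, a log2 fold change of 4.0003 ± 0.36 (adjusted p = 2.75e-07). With the receptor alone it had 363, 359 and 339.6 CPM (log2 fold change 8.999 ± 0.34, adjusted p = 1.61e-11). It did not share the drop of Mcpt1 in the double groups: RUNX1-ETO_FIRST libraries had 549, 436 and 447 CPM and CSF3R_FIRST libraries 996, 1009 and 1198 CPM, above CSF3R_ONLY in every library.

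Mcpt8, a serine protease of the same locus used as a basophil marker, had a mean of 93.9 CPM in the controls, where Cma1, Mcpt1, Mcpt2 and Mcpt4 had means of at most 1.79 CPM. EMPTY libraries had 79.1, 83.7 and 119 CPM, RUNX1-ETO_ONLY libraries 273, 259 and 328 and CSF3R_ONLY libraries 528, 534 and 529.97. The groups did not overlap, and the log2 fold changes were 1.61 ± 0.15 (adjusted p = 3.1e-07) and 2.50 ± 0.15 (adjusted p = 3.3e-09), the smallest called rise of the 10 genes with the fusion alone. Mcpt8 reached 824, 646 and 639 CPM in RUNX1-ETO_FIRST and 1209.6, 1300.1 and 1469.7 CPM in CSF3R_FIRST.

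**Figure D2:**
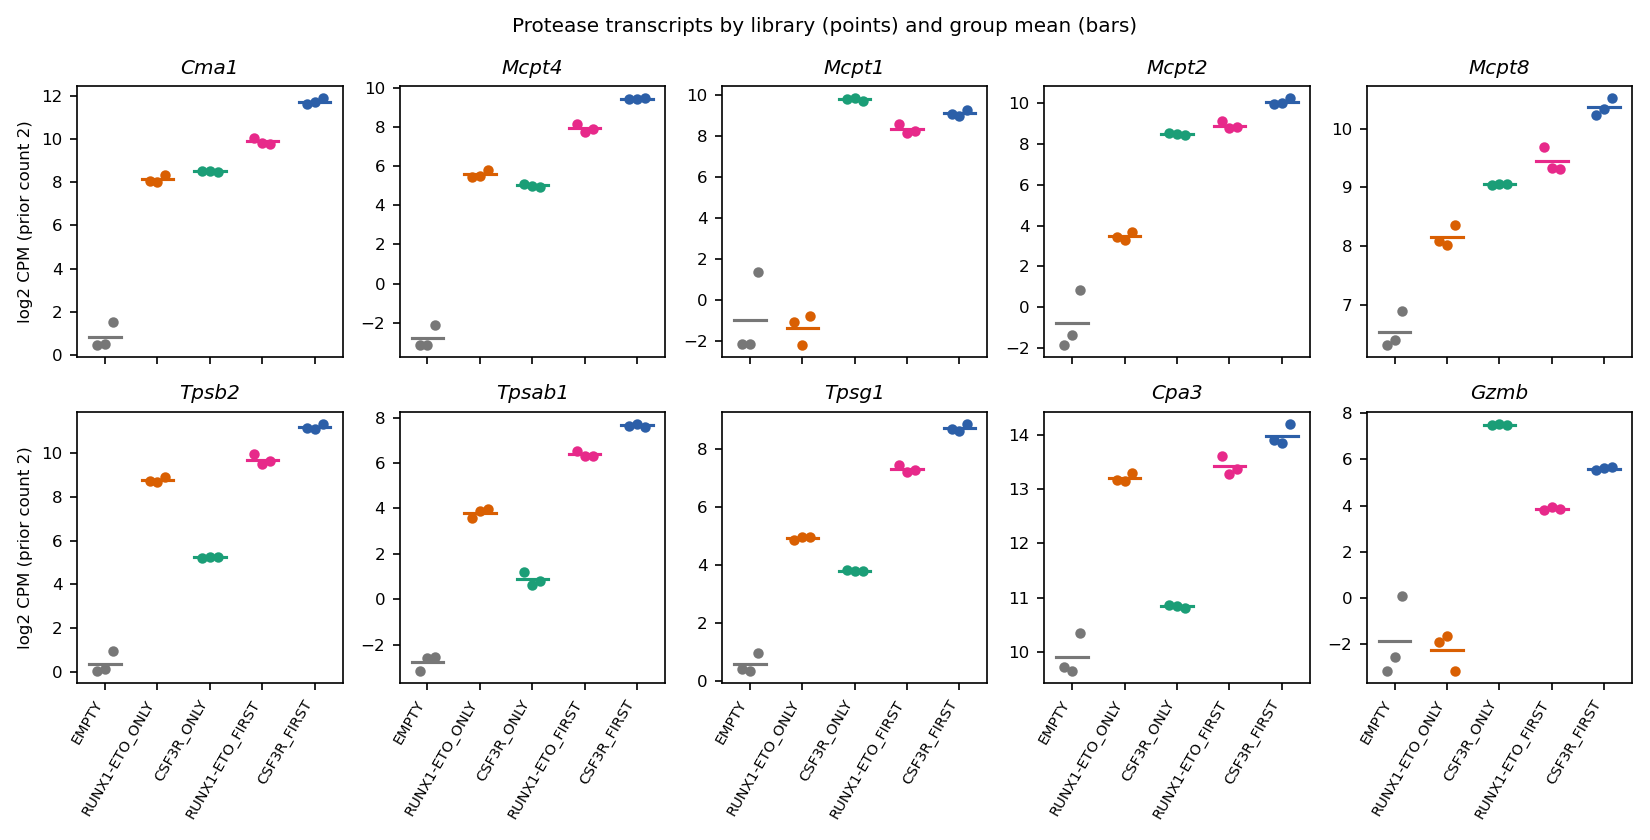
Level of each protease gene as log2 CPM (prior count 2) in every library, with points for libraries and horizontal bars for the means of the 5 groups, each panel on its own vertical scale. Mcpt1 and Gzmb are highest in CSF3R_ONLY and at the EMPTY level in RUNX1-ETO_ONLY, and the other 8 genes are highest in CSF3R_FIRST.

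Of the 10 genes, 6 lie in one stretch of chromosome 14 in GENCODE M21 on mm10. They run in the order Cma1 (chr14:55941451-55944675, minus strand), Mcpt1 (chr14:56017971-56020384, plus), Mcpt2 (chr14:56042041-56044642, plus), Mcpt4 (chr14:56059629-56062313, minus), Mcpt8 (chr14:56082166-56085273, minus) and Gzmb (chr14:56258838-56262260, minus), each with 5 exons. Mcpt1 and Mcpt2 had at most 12.6 CPM in RUNX1-ETO_ONLY libraries, where Mcpt4 had a mean of 48.5 CPM and Cma1 a mean of 283 CPM. The tryptases Tpsab1 (chr17:25343245-25345562, minus), Tpsb2 (chr17:25366305-25369098, plus) and Tpsg1 (chr17:25369273-25374442, plus) are neighbours on chromosome 17, and Cpa3 lies alone (chr3:20215620-20242181, minus, 11 exons). Reads of 50 bases could be shared with another gene over 5.48% of the Mcpt4 transcript positions (with Cma2 and Mcpt9) and 5.38% of those of Cma1 (with Gm48934). For the other 8 genes no 50-base window of their transcripts was found in another gene.

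Mcpt1 and Mcpt4 are the pair whose coding sequences are most alike (86.5% identical), yet with the fusion alone Mcpt4 rose to 2820 counts over 3 libraries while Mcpt1 had 18. Their upstream windows, the 250 bases before the transcript start in RefSeq (GRCm38.p6), are 81% identical (209 of 258 aligned positions), and are shown with those of Gzmb, which followed Mcpt1, and Cpa3, which was higher with the fusion than with the receptor. Capitals mark the letters of a GATA motif (AGATAA or TGATAA) or of the RUNX core motif (TGTGGT, or ACCACA where it is on the other strand). The windows are chr14:56017714-56017963 on the plus strand for Mcpt1, and chr14:56062311-56062560, chr14:56262335-56262584 and chr3:20242182-20242431 on the minus strand for Mcpt4, Gzmb and Cpa3:
Mcpt1: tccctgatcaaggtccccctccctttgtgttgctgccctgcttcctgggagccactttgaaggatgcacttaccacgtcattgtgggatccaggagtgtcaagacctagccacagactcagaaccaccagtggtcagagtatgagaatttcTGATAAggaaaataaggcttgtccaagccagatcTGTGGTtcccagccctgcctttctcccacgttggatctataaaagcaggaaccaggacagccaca
Mcpt4: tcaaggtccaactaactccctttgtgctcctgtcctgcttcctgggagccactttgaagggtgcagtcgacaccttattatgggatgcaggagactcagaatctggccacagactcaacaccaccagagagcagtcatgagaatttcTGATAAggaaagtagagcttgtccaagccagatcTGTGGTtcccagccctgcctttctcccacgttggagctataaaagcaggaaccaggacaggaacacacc
Gzmb: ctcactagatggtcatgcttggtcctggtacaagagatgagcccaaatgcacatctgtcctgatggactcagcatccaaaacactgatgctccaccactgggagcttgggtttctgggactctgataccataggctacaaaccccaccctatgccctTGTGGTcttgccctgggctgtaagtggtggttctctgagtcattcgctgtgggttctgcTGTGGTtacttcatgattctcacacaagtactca
Cpa3: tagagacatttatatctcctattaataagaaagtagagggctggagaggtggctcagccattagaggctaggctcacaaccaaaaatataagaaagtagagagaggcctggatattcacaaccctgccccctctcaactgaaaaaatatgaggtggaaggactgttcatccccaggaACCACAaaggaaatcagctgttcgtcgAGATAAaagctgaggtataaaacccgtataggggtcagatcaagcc

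Mcpt1 and Mcpt4 had the same motif letters in the same order and spacing. TGATAA began 99 bases before the start in Mcpt1 and 103 in Mcpt4, and TGTGGT followed 34 bases later in both, at -65 and -69. TATAAA was at -28 and -32. In Cpa3 the order differed, with TGTGGT on the other strand at -73, AGATAA at -46 and TATAAA at -31 and, on the other strand, at -242. Gzmb had TGTGGT at -93 and -34 and none of the GATA or TATAAA letters. Mcpt8 had TGTGGT at -188 and, on the other strand, at -139, Tpsg1 had TGATAA at -93 in its first RefSeq window and TGTGGT at -206, -166 and -53 in its second, and Cma1 had none of the letters searched. RefSeq windows were matched for 7 of the 10 genes (not for Mcpt2, Tpsab1 and Tpsb2). On both strands of 32851 windows of the same length, AGATAA was found in 9.99%, TGATAA in 7.94%, TGTGGT in 14%, TATAAA in 12.4%, the STAT motif TTCNNNGAA in 7.02% and the E-box CACGTG in 6.02%, and neither of the last 2 was in a window of these genes. Positions are counted from RefSeq starts, which differ from the GENCODE starts for some of these genes. The Gzmb window stops at chr14:56262335, short of the GENCODE start at 56262260, and the bases between were not searched. The Mcpt8 window reaches chr14:56085198, inside the GENCODE gene, whose start is at 56085273. These matches describe letters only.

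**Figure D3:**
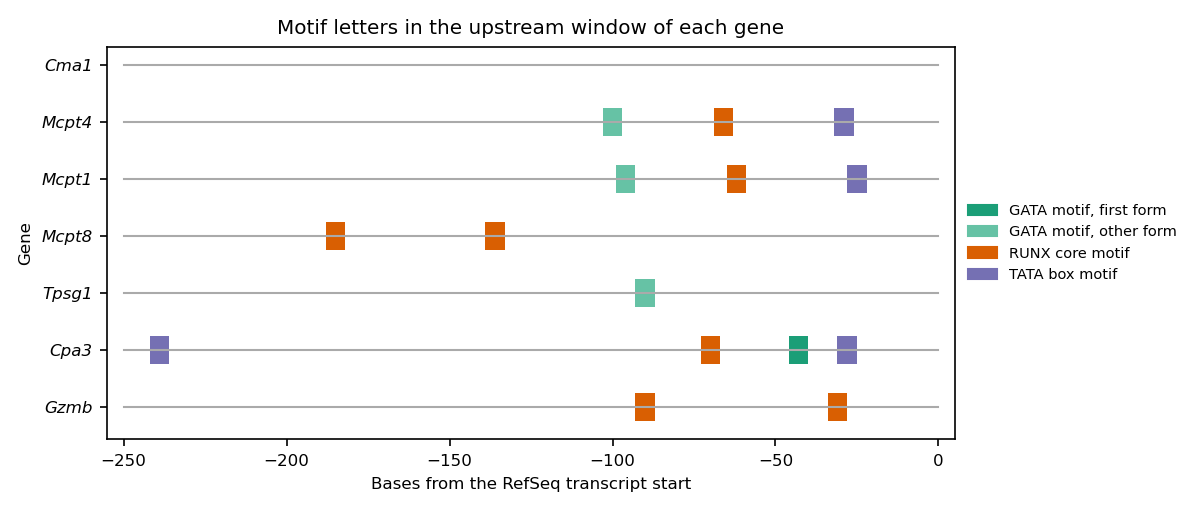
Position of motif letters in the 250 bases before the RefSeq transcript start (horizontal axis, bases from the start) of 7 protease genes, 1 line per gene (the first window where RefSeq has several), with a colour for each motif. Mcpt4 and Mcpt1 carry a GATA, a RUNX and a TATA motif at nearly the same positions, while Cma1 carries none.

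The tryptases rose more with the fusion than with the receptor. Tpsb2 (mouse mast cell protease 6, the main tetrameric tryptase) had 0.936, 1 and 1.86 CPM in EMPTY, 424, 411 and 469 CPM in RUNX1-ETO_ONLY and 37.2, 38.1 and 38.1 CPM in CSF3R_ONLY. The log2 fold changes over EMPTY were 8.43 ± 0.20 (adjusted p = 7.53e-14) and 4.91 ± 0.19 (adjusted p = 1.72e-11). Tpsb2 was at 979, 723 and 789.7 CPM in RUNX1-ETO_FIRST and at 2241, 2189 and 2532 CPM in CSF3R_FIRST. No 2 of the 5 groups overlapped.

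Tpsab1 (mouse mast cell protease 7, the second soluble tryptase) was the least abundant of the tryptases. It had 0, 1 and 1 counts in EMPTY, 11.7, 14.8 and 15.5 CPM in RUNX1-ETO_ONLY and 2.22, 1.45 and 1.61 CPM in CSF3R_ONLY. Over the summed counts, scaled by total counts alone, that was 390 times (108 to 3225) and 44.5 times (12.0 to 373) the EMPTY level. Tpsab1 stood at 92.4, 79.6 and 79.2 CPM in RUNX1-ETO_FIRST and 201, 211 and 195 CPM in CSF3R_FIRST. Tpsg1 (the membrane-anchored gamma tryptase) showed the same order of groups: 1.21, 1.17 and 1.86 CPM in EMPTY, 14.2, 13.7 and 13.8 in CSF3R_ONLY, 29.3, 31.4 and 31.3 in RUNX1-ETO_ONLY. With both alleles it had 176, 149.99 and 158 CPM, fusion first, and 416, 398 and 469 CPM, receptor first. Its log2 fold changes were 4.44 ± 0.14 with the fusion and 3.30 ± 0.14 with the receptor.

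Cpa3, the carboxypeptidase that trims peptides cut by the chymases, was abundant in every group. EMPTY libraries had 840.2, 805 and 1312 CPM, CSF3R_ONLY libraries 1870.1, 1848 and 1794 CPM and RUNX1-ETO_ONLY libraries 9229, 9086 and 9992 CPM. The log2 fold change was 3.26 ± 0.17 with the fusion (adjusted p = 5.02e-10) and 0.90 ± 0.16 with the receptor (adjusted p = 0.000415). Cpa3 was the one gene of the 10 that did not pass the threshold when the receptor was added to fusion cells: RUNX1-ETO_FIRST libraries had 12538, 9881 and 10535 CPM and overlapped RUNX1-ETO_ONLY (log2 difference 0.22 ± 0.16, adjusted p = 0.358). Without the 4 libraries named above the difference was 0.15 (adjusted p = 0.0204). CSF3R_FIRST libraries had 15204, 14785 and 18732 CPM.

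Gzmb rose with the receptor alone and was lower where the fusion was present too. It had 0, 1 and 16 counts in EMPTY and 3, 4 and 0 counts in RUNX1-ETO_ONLY, which overlapped (log2 fold change -1.37 ± 0.98, adjusted p = 0.295). CSF3R_ONLY libraries had 181, 184 and 177 CPM, a log2 fold change of 9.10 ± 0.37 (adjusted p = 2.86e-11). Both double groups were far below that, at 13.97, 15.3 and 14.2 CPM in RUNX1-ETO_FIRST and 45.8, 48.5 and 50.4 CPM in CSF3R_FIRST, while still above EMPTY in every library.

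Several fold changes over EMPTY rest on EMPTY replicate 3, which held 41 of 45 Mcpt1 counts, 16 of 17 Gzmb counts, 28 of 36 Mcpt2 counts and both Mcpt4 counts of that group. Without it, the log2 fold change with the receptor alone was 12.87 for Mcpt1, 12.33 for Gzmb, 12.16 for Mcpt4 and 10.58 for Mcpt2. With the fusion alone it was 12.75 for Mcpt4 and 5.58 for Mcpt2, and the sign for Mcpt1 (1.41, adjusted p = 0.18) and Gzmb (1.86, adjusted p = 0.194) turned, still without passing the threshold.

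Per kilobase of all annotated exons, a rough scale for levels between genes, Cpa3 was the most abundant of the 10 transcripts in each group. These exons together can be longer than any 1 transcript, as for Tpsb2 (1594 bases against 1289 in its longest), so close ranks are uncertain. In CSF3R_FIRST it had a mean of 10705 CPM per kb, followed by Cma1 (3101), Tpsb2 (1456), Mcpt8 (1329), Mcpt2 (1006), Mcpt4 (631), Mcpt1 (551), Tpsg1 (308), Tpsab1 (96.7) and Gzmb (33.6). In CSF3R_ONLY the order after Cpa3 (1211 CPM per kb) was Mcpt1 (881), Mcpt8 (532), Mcpt2 (334), Cma1 (329.6) and Gzmb (126), with Mcpt4 (29.1), Tpsb2 (23.7), Tpsg1 (10.02) and Tpsab1 (0.840) below. Mcpt2 and Cma1 there differed by less than 1 SD of Mcpt2 (11.9). In RUNX1-ETO_ONLY the order after Cpa3 (6220 CPM per kb) was Mcpt8 (287), Tpsb2 (273), Cma1 (259), Mcpt4 (43.8) and Tpsg1 (22.1), the first 3 of these within 1 SD of Mcpt8 (36.2).

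Counted against EMPTY, 8 of the 10 genes rose and none fell with the fusion alone, where 20.8% of the 13123 tested genes rose and 18.2% fell. With the receptor alone all 10 rose, against 19.9% of tested genes higher and 13.2% lower. The median log2 fold change of the 10 genes was 4.22 with the fusion and 6.48 with the receptor, against 0.01 and 0.00 over all tested genes. All 10 were also higher than EMPTY in RUNX1-ETO_FIRST, where 23.7% of genes rose and 20.2% fell, and in CSF3R_FIRST, where 26.8% rose and 26.7% fell. These 4 comparisons share the EMPTY libraries.

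Set directly against each other, the single alleles favoured different enzymes. In RUNX1-ETO_ONLY minus CSF3R_ONLY, 5 genes were higher with the fusion: Tpsb2 (log2 difference 3.52 ± 0.14), Tpsab1 (2.99 ± 0.16), Cpa3 (2.36 ± 0.17), Tpsg1 (1.14 ± 0.10) and Mcpt4 (0.59 ± 0.13, adjusted p = 0.00135). Higher with the receptor were 4 genes: Mcpt1 (-11.46 ± 0.53), Gzmb (-10.47 ± 0.41), Mcpt2 (-4.999 ± 0.25) and Mcpt8 (-0.89 ± 0.14, adjusted p = 0.000107). Of all tested genes 22.3% were higher with the fusion and 23.8% with the receptor. All 3 tryptases and Cpa3 were thus on the fusion side, and the chymase locus was split. Cma1 did not pass the threshold (-0.35 ± 0.14, adjusted p = 0.064), although its libraries did not overlap, and it passed without RUNX1-ETO_ONLY replicate 3 (-0.45, adjusted p = 0.0347) and without those 4 libraries (-0.44, adjusted p = 8.09e-10).

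**Figure D4:**
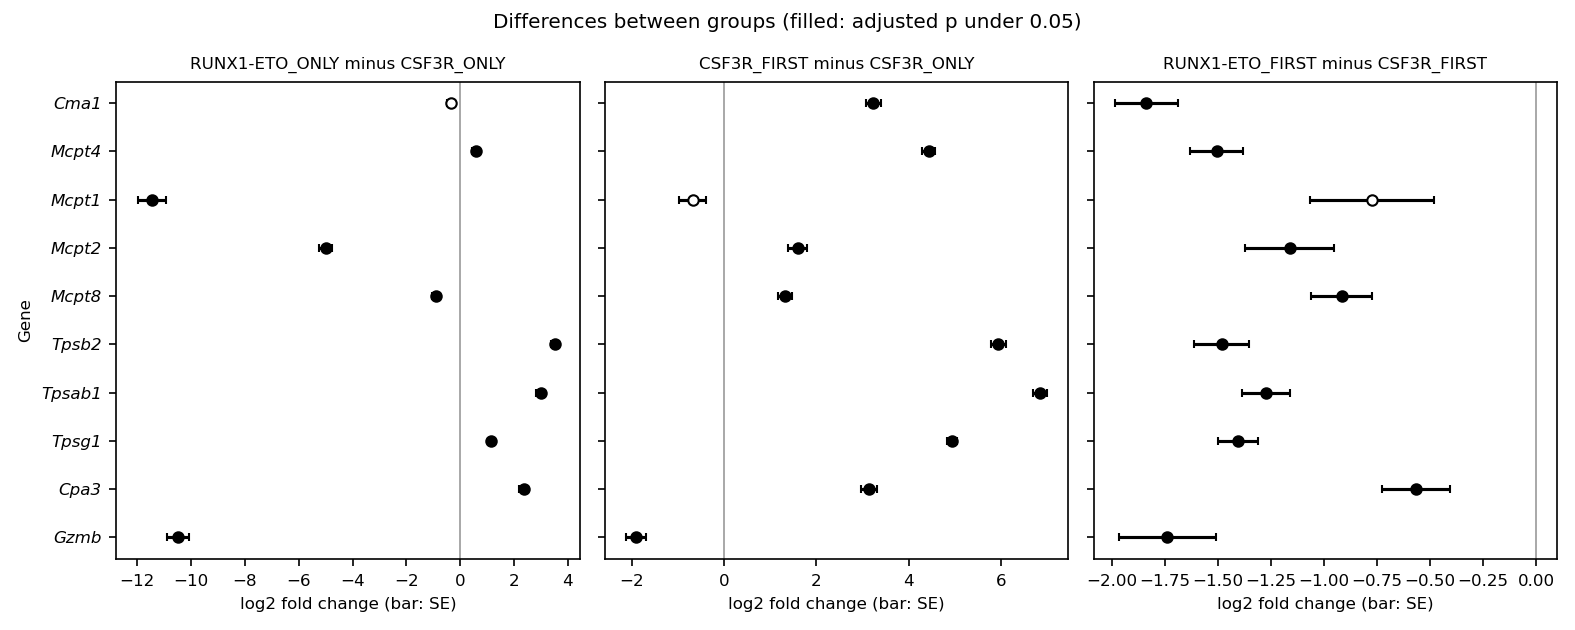
Log2 fold change of each protease gene with its standard error as a bar in 3 comparisons, filled where the adjusted p is under 0.05, with a horizontal scale of its own in each panel. In RUNX1-ETO_ONLY minus CSF3R_ONLY the genes lie on both sides of 0, from -11.46 to 3.52, while in RUNX1-ETO_FIRST minus CSF3R_FIRST all 10 lie below 0.

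Between the double groups, which by label carried the same alleles, the proteases were lower where the fusion had come first. Mean Runx1t1 was also lower there (494 CPM against 712 CPM), and the part of this difference in the results was not tested. In RUNX1-ETO_FIRST minus CSF3R_FIRST 9 of the 10 genes fell and none rose, against 11.1% of tested genes lower and 7.22% higher, with a median log2 difference of -1.34 against 0.00 over all genes. The largest differences were those of the chymase Cma1 (-1.84 ± 0.15, adjusted p = 6.16e-07), Gzmb (-1.74 ± 0.23, adjusted p = 6.74e-05), Mcpt4 (-1.51 ± 0.12) and Tpsb2 (-1.48 ± 0.13). Tpsg1 (-1.41 ± 0.09), Tpsab1 (-1.27 ± 0.11), Mcpt2 (-1.16 ± 0.21, adjusted p = 0.00111) and Mcpt8 (-0.92 ± 0.14) followed.

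Cpa3, Mcpt1 and Gzmb were less certain in the comparison of the double groups. Cpa3 had the smallest difference (-0.56 ± 0.16, adjusted p = 0.0224), and its call was lost without RUNX1-ETO_FIRST replicate 2 (adjusted p = 0.0972) or 3 (0.0693), without CSF3R_FIRST replicate 3 (0.0861) and with no low-count filter (0.0564). Mcpt1 did not pass in the fit of all libraries (-0.77 ± 0.29, adjusted p = 0.081), whose spread for Mcpt1 includes its EMPTY libraries, and it passed when only the double groups were fitted (-0.76, adjusted p = 0.000508). The call for Gzmb was lost with DESeq2 (adjusted p = 0.0539). Without those 4 libraries all 10 genes were lower, Cpa3 by -0.58 and Mcpt1 by -0.84 on the log2 scale. Scaling by library size alone moved the median of all genes in this comparison to 0.10 and the higher share of calls from 39.4% to 62%, and 9 of the 10 proteases were counted lower there too.

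Adding the receptor to fusion cells raised 9 of the 10 genes (RUNX1-ETO_FIRST minus RUNX1-ETO_ONLY), where 16% of tested genes were higher and 10.3% lower. The rise was largest in Mcpt1 (log2 difference 10.01 ± 0.52), Gzmb (6.83 ± 0.47) and Mcpt2 (5.43 ± 0.26). Tpsab1 (2.58 ± 0.12), Tpsg1 (2.40 ± 0.10), Mcpt4 (2.34 ± 0.13), Cma1 (1.74 ± 0.15), Mcpt8 (1.29 ± 0.15) and Tpsb2 (0.93 ± 0.13) rose less.

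Adding the fusion to receptor cells (CSF3R_FIRST minus CSF3R_ONLY) raised 8 genes and lowered 1, with 22.3% of tested genes higher and 22.6% lower. The tryptases rose most, Tpsab1 by 6.84 ± 0.16, Tpsb2 by 5.94 ± 0.16 and Tpsg1 by 4.94 ± 0.11 on the log2 scale. The chymases Mcpt4 (4.44 ± 0.14) and Cma1 (3.23 ± 0.16) and Cpa3 (3.14 ± 0.17) came next, then Mcpt2 (1.59 ± 0.21) and Mcpt8 (1.32 ± 0.15). Gzmb was the gene that fell (-1.91 ± 0.21, adjusted p = 2.45e-06). Mcpt1 was at -0.68 ± 0.29 (adjusted p = 0.0726) with no overlap between the groups, and passed when only these groups were fitted (-0.65, adjusted p = 4.71e-06) and without those 4 libraries (-0.75, adjusted p = 1.78e-15).

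The level in cells with both alleles was then compared with the sum of the single-allele changes on the log2 scale, tested by subtracting the means of the single-allele groups from that of a double group and adding that of EMPTY. With the fusion first, 7 of the 10 genes were below that sum and none above, against 9.42% of tested genes below and 6.42% above. They were Mcpt4 (-7.15 ± 0.41), Cma1 (-5.92 ± 0.25), Tpsb2 (-3.97 ± 0.23), Mcpt2 (-3.57 ± 0.43), Tpsab1 (-2.72 ± 0.60), Mcpt8 (-1.20 ± 0.20) and Tpsg1 (-0.91 ± 0.18). With the receptor first, 4 genes were below the sum and none above, against 12.5% of tested genes below and 10.4% above: Mcpt4 (-5.64 ± 0.47), Cma1 (-4.08 ± 0.25), Tpsb2 (-2.49 ± 0.24) and Mcpt2 (-2.41 ± 0.45). Both tests use the same EMPTY and single-allele libraries. A sum on the log2 scale multiplies the fold changes, and a sum on the CPM scale was not tested.

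The 4 genes below the sum in both orders still had a higher mean CPM in both double groups than in either single-allele group. The share of all tested genes with this order of means was not counted. Tpsg1 was at 0.50 ± 0.19 (adjusted p = 0.0689) and Tpsab1 at -1.45 ± 0.64 (adjusted p = 0.137) with the receptor first. EMPTY replicate 3 enters each of these values. Without it, the fusion-first value was -9.83 for Mcpt4, -5.15 for Mcpt2 and -5.51 for Gzmb (adjusted p = 0.000565, against -2.27 and 0.26 with it), and Mcpt1 moved from 0.00 (adjusted p = 0.997) to -2.86 (adjusted p = 0.0154). The receptor-first value without it was -8.30 for Mcpt4, -3.97 for Mcpt2 and -3.75 for Gzmb (adjusted p = 0.00987, against -0.53 and 0.79 with it).

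**Figure D5:**
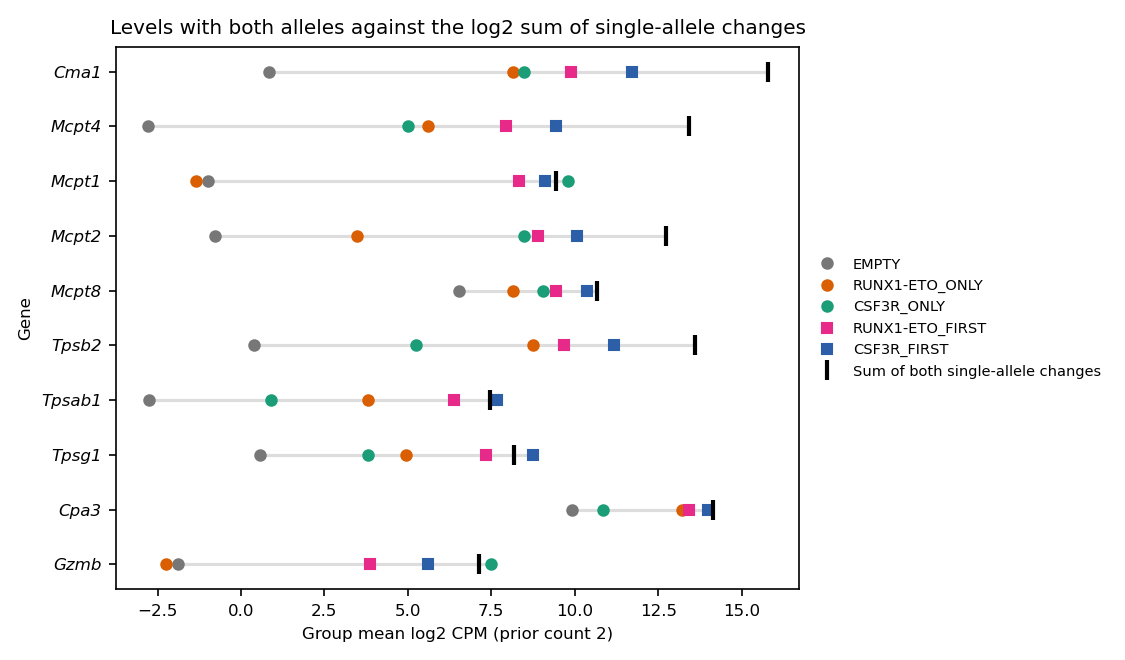
Mean log2 CPM (prior count 2) of each protease gene in the 5 groups, with circles for EMPTY and the single-allele groups, squares for the double groups and a black bar where the sum of both single-allele changes would put a double group. For Cma1, Mcpt4, Mcpt2 and Tpsb2 both squares lie left of the bar and right of all circles, and for Mcpt1 and Gzmb they lie left of the CSF3R_ONLY circle.

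Across the 15 libraries the 3 highest correlations were between genes of the same class, chymases or tryptases. Pearson correlations of log2 CPM were 0.99 for Cma1 with Mcpt4, 0.99 for Tpsab1 with Tpsg1 and 0.98 for Tpsb2 with Tpsab1. Next came Mcpt2 with Mcpt8 (0.9725), then the pairs across classes Tpsb2 with Cpa3 (0.9723) and Mcpt1 with Gzmb (0.9719). The lowest was 0.19 for Cpa3 with Gzmb. Libraries of a group share their genotype, so these values mainly describe 5 group levels. The named genes whose log2 CPM was most like the mean standardised level of the 10 were Ly6a (r = 0.996), the calcium-binding protein gene S100a6 (0.9935), the anion transporter gene Slco2b1 (0.993), Tarm1 (0.991) and the linker histone gene H1f0 (0.989). Ly6a, which encodes the surface antigen Sca-1, had means of 0.401, 24.6, 53.8, 328 and 944 CPM (controls, fusion, receptor, fusion first, receptor first). Most like Gzmb were the kinase gene Pim1 (r = 0.981), the cell cycle inhibitor gene Cdkn2d (0.975) and Grina (0.973), all highest in CSF3R_ONLY.

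Other mast cell genes changed too. Of 11 mast cell markers outside the 10 genes, 9 rose and 1 fell with the fusion alone, 7 rose and 1 fell with the receptor alone, and 8 were lower and none higher in RUNX1-ETO_FIRST than in CSF3R_FIRST. Of all tested genes, 20.8% rose and 18.2% fell with the fusion alone, 19.9% rose and 13.2% fell with the receptor alone, and 11.1% were lower and 7.22% higher between the double groups. These shares are the background of every list that follows. Hdc, which makes histamine, had a mean of 421 CPM in EMPTY, 1570.02 in RUNX1-ETO_ONLY, 838 in CSF3R_ONLY, 3372 in RUNX1-ETO_FIRST and 6074 in CSF3R_FIRST. Fcer1a, the IgE-binding chain of the receptor, had 0 counts in EMPTY and means of 0.448, 19.2, 32.9 and 103 CPM in the other groups in that order. Kit, the receptor for stem cell factor, was the gene that fell with each single allele, from a mean of 331 CPM to 187 and 86.2 CPM. The summed level of the 11 markers was 1044 to 1222 CPM in EMPTY libraries and 9616 to 10282 CPM in CSF3R_FIRST libraries, and Mrgprb2, a receptor of connective tissue mast cells, stayed under 1 CPM in the mean of every group.

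All 4 basophil markers rose with either allele, and 3 of them were lower in RUNX1-ETO_FIRST than in CSF3R_FIRST. Prss34, the basophil protease mouse mast cell protease 11, had a mean of 47.1 CPM in EMPTY, 409 in RUNX1-ETO_ONLY, 158 in CSF3R_ONLY, 635 in RUNX1-ETO_FIRST and 1733 in CSF3R_FIRST, the order of groups seen for the tryptases. The summed level of the basophil markers was 106 to 139 CPM in EMPTY and 1938 to 2199 CPM in CSF3R_FIRST. Kit had its highest mean in EMPTY, Hpgds (3.46 CPM) and Mrgprb2 theirs in RUNX1-ETO_ONLY and Mrgprb1 in RUNX1-ETO_FIRST, and the other markers of both lists had theirs in CSF3R_FIRST. The part of these cells' markers in the results was not tested.

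Cytotoxic lymphocyte markers had 0 counts or were too low to test, with the exception of Nkg7. Of 11 such genes, 5 (Cd3e, Cd8a, Gzmk, Klrd1 and Tbx21) had 0 counts in all libraries, 1 passed the low-count filter, and perforin (Prf1) had 0.135 CPM in CSF3R_ONLY against 0.415 in EMPTY, from 7 and 22 counts. The tested gene, Nkg7, fell with the receptor alone (-0.89, adjusted p = 0.000311). It was also called lower than EMPTY with the fusion alone (-1.02), with the fusion first (-1.85) and with the receptor first (-2.36). The summed level of the list was 141 to 229 CPM in EMPTY and 90.1 to 95.4 CPM in CSF3R_ONLY. Of 5 tested eosinophil markers, 4 rose with the receptor alone and 4 fell with the fusion alone. The granule protein gene Prg2 had 23.8 CPM in EMPTY, 98.5 in CSF3R_ONLY and 2.97 in RUNX1-ETO_ONLY. One of 4 plasmacytoid dendritic cell markers was tested, Cox6a2, and it fell with each single allele (-2.91 and -3.17).

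Few relatives of the 10 genes were expressed. Of 12 other chymase and granzyme genes 3 were tested, and 1 of them, the chymase Cma2, rose with each single allele: summed over 3 libraries it had 0 counts in EMPTY, 65 with the receptor, 81 with the fusion, and 338 and 773 with both, fusion first and receptor first. Ctsg, cathepsin G of neutrophil granules from the same locus, had means of 3112, 1895, 2738, 2567 and 3799.98 CPM (controls, fusion, receptor, fusion first, receptor first). It fell with the fusion alone (-0.72, adjusted p = 0.000252) and differed by -0.57 between the double groups (adjusted p = 0.00449). Of 10 other tryptase family genes 2 were tested, Prss34 and Prss28, and both rose with the fusion alone. Of 13 other carboxypeptidase genes 3 were tested. Cpd rose with the receptor alone (1.38, adjusted p = 7.44e-06) and Cpb1 with the fusion alone (6.51, adjusted p = 0.000277, from 0 counts in EMPTY to 37).

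Genes that store, activate or release granule proteases moved in both directions. Of 15 tested, 11 rose and none fell with the receptor alone, against 19.9% and 13.2% of all tested genes. With the fusion alone 7 rose and 4 fell (20.8% and 18.2% of all), and 6 were lower and none higher in RUNX1-ETO_FIRST than in CSF3R_FIRST (11.1% and 7.22% of all). Serglycin (Srgn), the core of the granule matrix, had means of 2278, 3141, 3619, 5907 and 10518 CPM (controls, fusion, receptor, fusion first, receptor first), and differed by -0.83 on the log2 scale between the double groups (adjusted p = 0.0021). Ndst2, needed for heparin sulphation, and Ctsc, which activates granule serine proteases, also were lower with the fusion first (-0.56 and -0.64), as was Ctsl (-1.29). Rab27b, a granule trafficking gene, rose by 6.61 with the fusion and 3.96 with the receptor. The 4 that fell with the fusion alone were the lysosome trafficking gene Lyst (-1.96, adjusted p = 1.53e-05), from a mean of 102 CPM to 26.2 CPM, the granule docking gene Rab27a (-0.70), and the sorting receptor genes Sort1 (-0.51) and M6pr (-0.45).

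Among 10 tested protease inhibitors, 5 rose and 1 fell with the fusion alone (20.8% and 18.2% of all genes) and 4 rose with the receptor alone (19.9%). The serpins Serpina3f (6.46) and Serpina3g (5.5999) had the largest rises with the fusion, and Slpi, an inhibitor of neutrophil serine proteases, fell by 3.98 on the log2 scale. Serpinb9, the inhibitor of granzyme B, had 1.13 CPM in EMPTY and 1.33 in CSF3R_ONLY (adjusted p = 0.633). In RUNX1-ETO_FIRST against CSF3R_FIRST 3 inhibitors were lower and none higher (11.1% and 7.22% of all genes).

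Of 12 transcription factors known to act on mast cell genes, 7 rose and 3 fell with the fusion alone, 5 rose and 1 fell with the receptor alone, and 2 were higher and 3 lower in RUNX1-ETO_FIRST than in CSF3R_FIRST. The shares of all genes were 20.8% and 18.2%, 19.9% and 13.2%, and 7.22% and 11.1%. Gata1 had means of 3.44, 42.1, 34.7, 65.4 and 136 CPM (controls, fusion, receptor, fusion first, receptor first), and differed between the double groups by -1.06 (adjusted p = 1.19e-05). Gata2 rose with each single allele (2.12 and 1.87) and was at -0.24 between the double groups (adjusted p = 0.0575). Counts of Runx1 may include reads of the fusion that map to its Runx1 part. Cebpa and Cebpb, factors of granulocyte genes, fell with the fusion alone (-0.98 and -1.45), and Cebpb rose with the receptor alone (0.71). Mitf, a regulator of several chymase and tryptase genes, rose with the fusion alone (0.58, adjusted p = 0.0475) and was at 0.26 with the receptor alone (adjusted p = 0.423).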

How the data were processed

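Per the labels, RNA was purified on columns with DNase treatment, and mRNA libraries that keep the strand were read on a BGI DNBSEQ sequencer. The authors deposited raw counts per gene symbol, 1 column for each of the 15 libraries. Trimmomatic, STAR and DESeq2 are listed, with the build mm10 and no versions, in the submitters' processing notes. Not given in the sources used here are the counting program, annotation, strand setting and treatment of shared reads, so counts of close paralogs are less certain. The entry naming no gene (0.0179% to 0.0305% of counts) was left out.

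Genes were filtered by group (filterByExpr, 13123 kept), scaled by TMM and fitted together over 5 group means with edgeR 4.0.16 under R 4.3.3 (robust quasi-likelihood, 10 residual degrees of freedom, two-sided, Benjamini-Hochberg adjustment within each of 10 comparisons, threshold 0.05). SE is the log2 fold change divided by the root of F. CPM uses TMM factors, and log2 CPM a prior count of 2. Lengths are union exons of GENCODE M21. Alternatives were library sizes alone, DESeq2 size factors, no filter, DESeq2 1.42.0, limma-voom (limma 3.58.1), a replicate block, the compared groups alone and each library left out. No 2 libraries held the same values (lowest correlation within a group 0.9905).

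The 10 genes and the 11 lists (112 genes) were chosen with earlier results of these data known. Named were all 10 genes, from each list up to 4 called genes of largest change and up to 2 abundant uncalled ones, and the 5 genes most like the 10 (3 for Gzmb) by Pearson correlation among named genes whose log2 CPM averaged 3 or more. Kit, Hdc, Hpgds, Mrgprb1, Prf1, Rab27a, Sort1, M6pr, Cebpa and Mitf, and the lymphocyte genes at 0 counts, fall outside this rule and were chosen after their values were seen. The comparison of the single alleles with each other, and leaving out the libraries low in long transcripts, were added after the data were seen. Their limit was a correlation below -0.2. A first limit of -0.3, which takes in 2 of these 4 libraries, was replaced after its results were seen, and both are reported.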

Additional observations from a re-analysis of the deposited data

Results flagged for a closer look

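The effect of one allele differed with the presence of the other, by the test that sets a double group against the summed changes of both single-allele groups. With the fusion first, the log2 value was -7.15 for Mcpt4, -5.92 for Cma1, -3.97 for Tpsb2, -3.57 for Mcpt2, -2.72 for Tpsab1, -1.20 for Mcpt8 and -0.91 for Tpsg1 (edgeR, adjusted p under the threshold of 0.05 for each). With the receptor first, the value was -5.64 for Mcpt4, -4.08 for Cma1, -2.49 for Tpsb2 and -2.41 for Mcpt2. In each of these the double group was below the sum of the single-allele changes on the log2 scale, which multiplies their fold changes. Each of these genes still had a higher mean CPM in both double groups than in either single-allele group. A sum on the CPM scale was not tested. The 2 orders share their EMPTY and single-allele libraries.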

How the results depend on the processing

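Over the 10 genes and 10 comparisons, 1620 log2 values from alternatives were compared with the reported ones: 1547 kept direction and side of the threshold, 44 passed it, 5 lost it and 24 turned direction. All 24 that turned were of values not past the threshold, in the fusion-alone and additivity comparisons. With the fusion alone, Mcpt1 was 0.63 and Gzmb 1.54 with limma-voom, 0.998 and 2.41 without the 4 length-biased libraries named in the report, and 1.01 and 2.42 without the 2 below the first limit. Leaving out 1 library gave -1.99 to 1.41 for Mcpt1 and -1.97 to 1.86 for Gzmb. For additivity with the fusion first, Mcpt1 was -0.0649 with library sizes alone, -2.16 with limma-voom, -0.0193 with the replicate block, -2.59 without the 4 libraries, -2.46 without the 2, and -2.86 to 0.54 with 1 library left out. With the receptor first, Mcpt1 was -1.36 with limma-voom, -1.74 without the 4 and -1.69 without the 2, and -2.06 to 1.31 with 1 library left out, Gzmb -3.75 to 0.0629 and Cpa3 -0.34 to 0.0111. The causes were not tested.

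Over all genes, calls in the comparison of the double groups numbered 2407, against 4269 with limma-voom, 4436 without the 4 libraries, 3912 without the 2 and 1727 to 2153 with 1 library left out. For additivity with the fusion first there were 2078, against 3490 with limma-voom and 3460 without the 4. Of the 10 genes, 4 were called for additivity with the receptor first, against 7 with limma-voom, 7 without the 4 and 4 to 6 with 1 library left out. Over all genes that comparison had 3004 calls, and 2476 to 4396 over the alternatives. Whether replicate numbers pair the libraries stayed undecided: 9 of 30 same-numbered pairs correlated over 0.1, and 8 of 15 libraries correlated best with their own number. Same-numbered pairs ranged from -0.243 to 0.455, with a median of 0.0026 against 0.0095 for pairs of different numbers. The replicate block brought calls for Mcpt1 when the fusion was added (-0.69, adjusted p = 0.0474), Cma1 between the single alleles (-0.35, adjusted p = 0.0431) and Cpa3 for additivity with the fusion first (-0.70, adjusted p = 0.0249). Scaling by library size alone moved the share of calls that were higher from 60.2% to 49.1% with the receptor alone, 50.1% to 37.8% in CSF3R_FIRST against EMPTY, 60.7% to 38.2% for adding the receptor, 45.5% to 26.9% for additivity with the receptor first and 48.4% to 62.7% between the single alleles. By Spearman, 1 of the 5 genes most like the 10 was the same. Levels under 50 counts summed over the EMPTY libraries, as for Mcpt1, Mcpt2, Mcpt4, Tpsab1 and Gzmb, limit the fold changes over EMPTY. Low EMPTY counts also limit those of Cma1 (23, 24 and 46), Tpsb2 (17, 18 and 31) and Tpsg1 (22, 21 and 31).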
